A study of Mus musculus with 8 samples.

Results

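The genes described here were 59 abundant autosomal long noncoding RNAs (lncRNAs) of mouse pancreatic tumors, among 29968 genes with deposited counts. They were chosen by their measured values: each was typed lncRNA in the table, lay on chromosomes 1 to 19, and had at least 200 counts in every one of the 8 tumors. The table held 5781 autosomal lncRNA genes, and 96 others passed the minimum in some but not all tumors. The tumors grew from KPC FC1245 cells, a single line taken from a pancreatic tumor of a mouse whose alleles included LSL-Trp53 R172H/+ and Pdx-1-Cre, injected in 50 µL of PBS into the pancreas of 12-week-old male hosts. The hosts were WT mice (C57BL/6J, n = 4) or C3-/- mice (n = 4), which lack complement C3, and no uninjected pancreas was analysed here. The deletion was in the host only, so the injected cells of both groups kept their own C3 gene. Each tumor is a mixture of carcinoma cells and host cells in which fewer cells of a type and less RNA per cell cannot be told apart. The members just inside the minimum were Snhg20, Kcnq1ot1 and 1600020E01Rik, with lowest counts of 200, 202 and 204. The autosomal lncRNAs just outside it were 2610507I01Rik, Gm50321 and Gm47469, with lowest counts of 179, 177 and 174.

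An lncRNA is a transcript without a long open reading frame that acts, where it has a function, as RNA. Some stay in the nucleus: Malat1 collects in nuclear speckles, which store splicing factors, and Neat1 is the scaffold on which paraspeckles are built. Others are mainly carriers of small RNAs that are cut out of their transcripts. These are some of the small nucleolar RNAs (snoRNAs), which guide chemical changes of ribosomal RNA, and many microRNAs (miRNAs). Still others sit in imprinted domains, where only the copy from 1 parent is transcribed.

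Total counts ran from 13266029 to 23354212 in WT tumors and from 15453897 to 22293561 in C3-/- tumors. C3 had 209, 425, 225 and 324 CPM (counts relative to the TMM-scaled library size) in the WT tumors and 109, 133, 100.1 and 100.5 in the C3-/- tumors, with no overlap (log2 fold change -1.42, SE 0.23, adjusted p 0.933 in edgeR and 1.28e-05 in DESeq2). Markers of carcinoma epithelium (Krt8, Krt18, Krt19, Epcam and Cdh1) summed to between 4612 and 8716 CPM and marked every tumor. Markers of skeletal muscle (Acta1, Ckm, Myh4, Tnnt3 and Myl1) were nearly absent from WT tumors 2 and 3 and C3-/- tumor 2, at 0.376 to 1.35 CPM in sum, and reached 1132 to 2796 CPM in the other 5 tumors. Markers of acinar cells summed to 1373 CPM in C3-/- tumor 1 and to between 38.2 and 64.4 CPM in the other C3-/- tumors. The WT tumors had 152.9 to 399.7 CPM. WT tumor 3 and C3-/- tumor 1 stood apart from the rest of their groups: pairs with WT tumor 3 had a chi-square per gene of 50.4 to 65.5 between their counts, against 21.9 to 35.5 for the other WT pairs, and pairs with C3-/- tumor 1 had 66.3 to 104, against 15.2 to 40.9.

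Malat1 and Neat1, both nuclear lncRNAs, ranked 1 and 21 of the 59 in level per length. They are neighbours on chromosome 19 (mm39), with Malat1 from 5845717 to 5852704 and Neat1 from 5874736 to 5895898, both on the minus strand. The libraries were made from RNA bound by poly-T beads, and neither Malat1 nor the long form of Neat1 ends in a poly-A tail, whereas the short form of Neat1 does. Malat1 and long Neat1 are cut by RNase P and end in a genome-encoded A-rich element that folds back on a pair of U-rich motifs into a triple helix. These ends are shown because they stand in place of a poly-A tail in libraries captured by poly-T. Each run below is 100 bases on the transcript strand, written as DNA and read from GRCm39, and the capitals mark the motifs TTTCTTTTC, TTTTGCTTT and AAAGCAAAA.
Malat1, chr19:5846010-5846109: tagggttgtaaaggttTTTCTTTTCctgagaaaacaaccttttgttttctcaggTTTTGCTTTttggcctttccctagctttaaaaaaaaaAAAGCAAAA
Neat1, chr19:5874736-5874835: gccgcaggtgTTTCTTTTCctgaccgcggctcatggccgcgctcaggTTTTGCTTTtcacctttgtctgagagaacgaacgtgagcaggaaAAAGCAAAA
The last base of the Neat1 run is the last base of its gene model, whereas the Malat1 model goes on for 293 bases. The Neat1 model, of 21163 bases, is thus that of the long form. Its level per length, and any ratio built on it, depends on which form was captured. The longest run of A is 12 bases in Malat1 and 5 in Neat1. The 3 motifs, taken from these sequences, followed each other in this order within 100 bases in 4 of 481956 GENCODE vM39 transcripts (0.00083%, transcript strand only), all of them of Malat1 or Neat1.

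Levels were compared per length, as FPKM (fragments scaled to transcript length and to the library). The means of the 59 lncRNAs over 8 tumors ran from 129 down to 0.33, with a median of 12.9, and 36 lay above 10. The 8279 autosomal protein-coding genes that met the same minimum had a median of 12.2. Malat1 was the highest, at 129 ± 37.7 FPKM (SD, n = 8), but the ranges of the 8 tumors overlapped between each lncRNA and the next one down in every step but 1. That step was the last, from Morrbid at 1.22 to Kcnq1ot1 at 0.33 FPKM.

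After Malat1 came ENSMUSG00000120992 at 105 ± 11.6 FPKM, Gm49980 at 90.7 ± 26.7, Gm20186 at 78.8 ± 20.1 and Gm10076 at 76.5 ± 28.3 (SD, n = 8 each). ENSMUSG00000120992 is typed lncRNA in the table, but GENCODE vM39 names it D17H6S56E-5 and types it protein-coding. The other 58 members are still typed lncRNA there. FPKM rests on the lengths in the table, and the models of only 10 members have the same coordinates in GENCODE vM39. Gm10076 is 407 bases long in the table against 1379 exonic bases there, and ENSMUSG00000120992 3043 against 6534, so levels and their order depend on the model. The top 10 closed with ENSMUSG00000121141 at 65.5 ± 12.5, Norad at 58.3 ± 5.45, ENSMUSG00000121069 at 54.2 ± 10.5, Gas5 at 53.9 ± 9.72 and Gm49172 at 50.2 ± 16.5 FPKM (SD, n = 8 each). Norad, a cytoplasmic RNA that binds Pumilio proteins, had the narrowest relative spread of these. Kcnq1ot1, whose model covers 93092 bases, came last in level per length, with raw counts of 202 to 939 in a tumor.

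**Figure D1:**
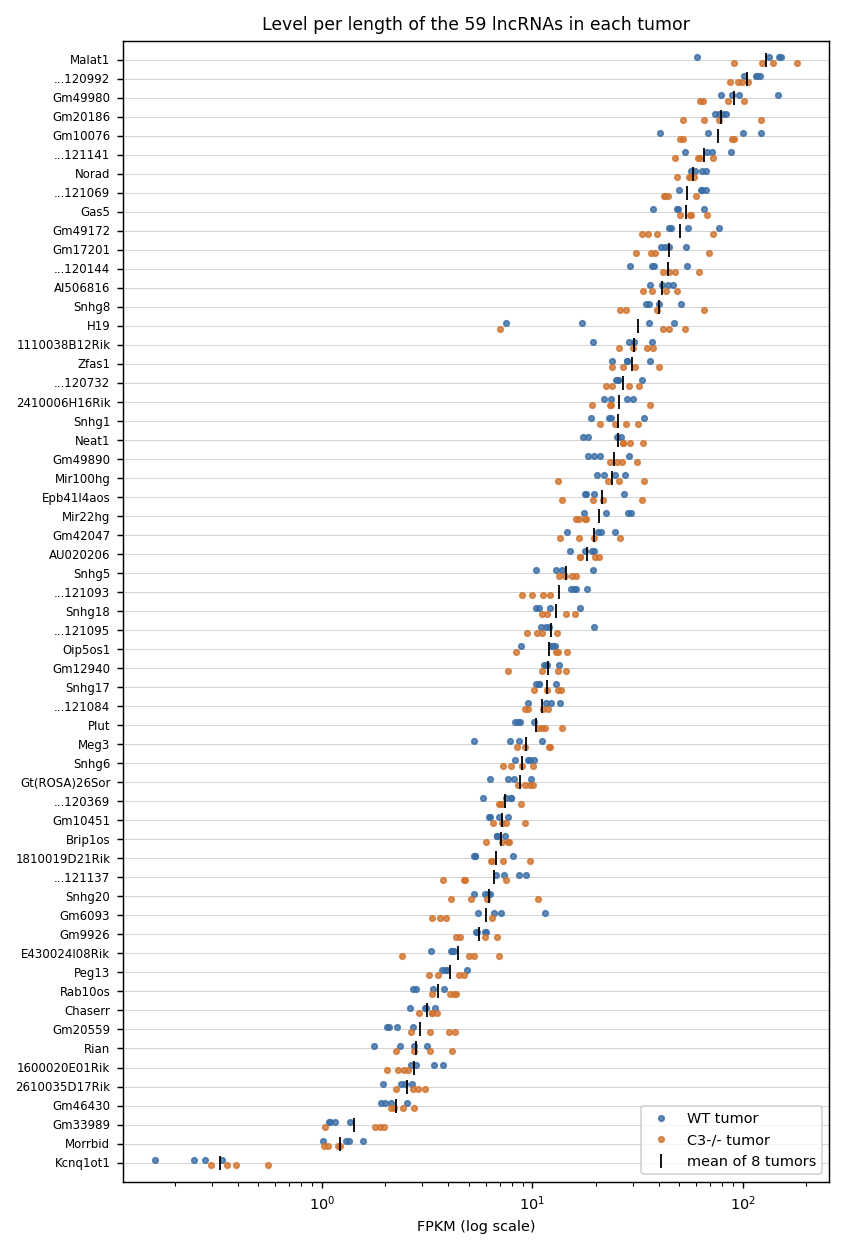
FPKM (log axis) of each of the 59 lncRNAs in each tumor, ordered by the mean of 8 tumors (black tick), with WT tumors in blue and C3-/- tumors in orange. Names starting with 3 dots are the last 6 digits of an Ensembl identifier; Malat1 leads at 129, Kcnq1ot1 closes at 0.33, and H19 has the widest spread.

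By raw counts, which grow with length, 10 members held 65% of the counts of the set. The 59 lncRNAs took 0.602% ± 0.046 of all counts in WT tumors (SD, n = 4). In C3-/- tumors they took 0.637% ± 0.083 (SD, n = 4), and the ranges of 0.534% to 0.634% and 0.528% to 0.729% overlapped. Malat1 alone held 14.7% of the counts of the set, and with Mir100hg, Neat1 and Gm20186 40.5%. Read assignment is uncertain for many members: 29 of the 59 models overlap another gene of the table, 23 of them on the opposite strand, and the strand setting of the counting is not given in the sources used here. In GENCODE vM39, most of the exonic length of 6 members lies against exons of the opposite strand. These are ENSMUSG00000121095, Epb41l4aos, Gm12940, Gm17201, ENSMUSG00000120732 and 2410006H16Rik.

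The comparison of genotypes asks whether loss of host C3 went with a different level of these RNAs in the tumor. In edgeR's quasi-likelihood test, 0 of the 59 had an adjusted p below 0.05, as had 0 of all 16610 genes tested (0%), and the smallest adjusted p was 0.933. DESeq2 called 16 of 20024 genes (0.0799%), and 1 of them was a member, ENSMUSG00000121093, which was lower in C3-/- tumors. At an unadjusted p below 0.05 in edgeR there were 11 of the 59 (18.6%), against 848 of all genes tested (5.11%) and 4.19% of the protein-coding genes that met the same minimum. Of the 11, 5 were higher in C3-/- tumors (3.03% of all genes tested were) and 6 were lower (2.07% of all genes tested were). The rule used counts in every tumor without regard to genotype, but the lncRNAs share the same 8 tumors, so these shares are a description. In DESeq2, 11 members also had an unadjusted p below 0.05, as had 1189 of 29900 genes (3.98%). These 29900 genes were not filtered by count and include genes with very few reads, so that share is not comparable with the one from edgeR.

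Of the 59 lncRNAs, 34 had a positive and 25 a negative log2 fold change (C3-/- over WT), with a median of 0.06 against -5.63e-05 over all genes tested and -0.02 over the abundant protein-coding genes. With 1 tumor left out in turn, the members' median was 0.0231 to 0.0856, and 32 to 39 had a positive fold change. For 37 of them (62.7%) the size of the log2 fold change was below 0.25, against 69.3% of all genes tested and 86.6% of the abundant protein-coding genes. For 7 (11.9%) it was above 0.5, against 10.8% and 1.29%. The 4 WT and 4 C3-/- values did not overlap for 4 of the 59 (6.78%, against 3.73% of all genes tested): Neat1 and Plut were higher and ENSMUSG00000121093 and 1600020E01Rik lower in C3-/- tumors.

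**Figure D2:**
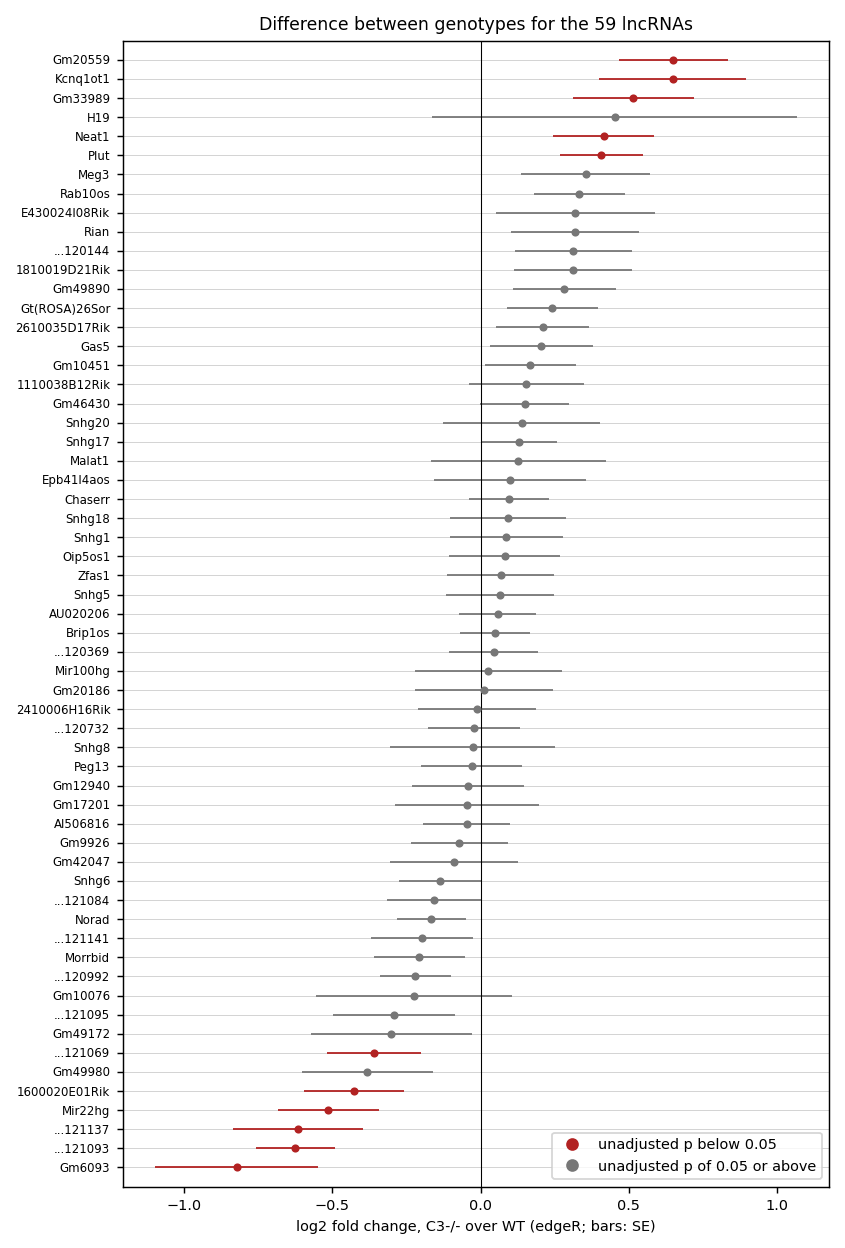
Log2 fold change (C3-/- over WT, edgeR) with its SE for each of the 59 lncRNAs, with the 11 whose unadjusted p was below 0.05 in red. The values run from -0.82 for Gm6093 to 0.65 for Gm20559, 37 lie within 0.25 of 0, and the bar of H19 is the longest.

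Among the nuclear RNAs, Neat1 had 369, 559.6, 393 and 542 CPM in WT tumors 1 to 4 and 574, 715, 573 and 623 in C3-/- tumors 1 to 4. Every C3-/- value thus lay above every WT value, although the nearest pair, 559.6 and 573, differed little. The difference was 0.42 on the log2 scale (SE 0.17, unadjusted p 0.0339, adjusted p 0.971 in edgeR), with means of 466 ± 98.6 and 621 ± 67.0 CPM (SD, n = 4 each). The Neat1 model overlaps Frmd8os on the opposite strand.

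Malat1 did not separate the genotypes. It had 1036, 1062, 427 and 935 CPM in the WT tumors and 638, 1283, 869.8 and 989 in the C3-/- tumors. Its lowest values were in WT tumor 3 and C3-/- tumor 1, so both groups spanned most of the range (log2 fold change 0.13, SE 0.30, adjusted p 0.999 in edgeR). The ratio of Malat1 to Neat1 in FPKM ran from 3.29 in WT tumor 3 and 3.37 in C3-/- tumor 1 to 8.5 in WT tumor 1. Over the 8 tumors Malat1 and Neat1 had a Pearson r of 0.51 (exact permutation p = 0.188, two-sided) and a Spearman rho of 0.29 (exact permutation p = 0.501) on log2 CPM. Without the tumors farthest from the median of Malat1, again WT tumor 3 and C3-/- tumor 1, r was 0.31 (n = 6, exact permutation p = 0.506). With 1 tumor left out in turn r was 0.12 to 0.88, the highest without WT tumor 1 (exact permutation p = 0.0145).

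Of the proteins that work with these RNAs, the paraspeckle list (20 genes, such as Sfpq, Nono and Pspc1) had 2 genes with an unadjusted p below 0.05, both higher in C3-/- tumors, against 3.03% of all genes tested. They were Tardbp, which encodes the RNA-binding protein TDP-43 (log2 fold change 0.30, SE 0.11), and Rbm14 (0.28, SE 0.12). The nuclear speckle list (20 genes) had 1, the splicing regulator Tra2a, also higher (0.39, SE 0.11). No gene of either list had an adjusted p below 0.05 in edgeR, and the lists' median log2 fold changes were -0.01 and 0.04. Nonsense-mediated decay, which degrades many spliced snoRNA host transcripts, had 0 of 14 factors at an unadjusted p below 0.05, against 5.11% of all genes tested, and a median of 0.07.

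The neighbouring gene Frmd8, beside Neat1, had a log2 fold change of -0.17 (SE 0.12) and did not pass an unadjusted p of 0.05. Over 24 neighbouring genes tested for 21 members, 2 had an unadjusted p below 0.05 (against 5.11% of all genes tested), and 11 had a fold change of the same sign as that of their lncRNA.

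Kcnq1ot1, an antisense RNA that silences its imprinted neighbours on the paternal chromosome, lies within Kcnq1 on chromosome 7 from 142757195 to 142850286. It had 25.8, 23.2, 15.2 and 31.8 CPM in the WT tumors and 27.9, 52.5, 33.2 and 37.1 in the C3-/- tumors. The groups overlapped through WT tumor 4 and C3-/- tumor 1 (log2 fold change 0.65, SE 0.25, unadjusted p 0.0261, adjusted p 0.971 in edgeR). Its host gene Kcnq1, which it overlaps on the opposite strand, had -0.23 (SE 0.18). The imprinted neighbours Cdkn1c, Phlda2 and Slc22a18 had log2 fold changes of 0.07, 0.52 and -0.06, none past an unadjusted p of 0.05.

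Meg3, Rian and Peg13 also lay in imprinted domains, and none passed an unadjusted p of 0.05. Meg3, on chromosome 12 from 109506879 to 109538165, had 102 to 214 CPM in WT and 163 to 235 in C3-/- tumors (log2 fold change 0.35, SE 0.22, and 0.19 without WT tumor 3 to 0.53 without WT tumor 2). Rian, the snoRNA-rich RNA that follows it, had 0.32 (SE 0.22), and Peg13 had -0.03 (SE 0.17). Mirg, the next transcript along the Meg3 and Rian domain, was too low to be a member and had a log2 fold change of 0.63 (SE 0.27, unadjusted p 0.0437, adjusted p 0.971 in edgeR). Dlk1, a protein-coding gene of that domain, which is expressed from the other parental copy, had 12.4, 12.3, 5.41 and 4.16 CPM in WT and 21.7, 19.1, 14.3 and 14.0 in C3-/- tumors. The Dlk1 groups did not overlap (log2 fold change 1.02, SE 0.35, unadjusted p 0.0159, adjusted p 0.96 in edgeR). Of the 8 imprinted noncoding genes tested, 6 had a positive fold change and 2 of these an unadjusted p below 0.05, with a median of 0.40. Over all genes tested, 50% had a positive fold change, 3.03% were higher at that p, and the median was -5.63e-05.

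H19, a maternally expressed RNA that in the adult persists in skeletal muscle, varied most of all members. It had 94.2, 45.3, 19.8 and 124 CPM in the WT tumors and 118, 18.7, 110.4 and 142 in the C3-/- tumors. The 3 lowest values, 18.7 to 45.3, came from the 3 tumors in which the skeletal muscle markers were nearly absent, and the 5 tumors with muscle markers had 94.2 to 142. The genotypes differed by 0.45 on the log2 scale (SE 0.62, adjusted p 0.999 in edgeR), and by 0.14 without WT tumor 3 to 0.87 without WT tumor 4. With the mean log2 level of the muscle markers in the fit, an alternative added after seeing the data, it was -0.13. The part of muscle cells in the H19 level was not tested otherwise. Igf2, its reciprocally imprinted neighbour, had 0 to 7 counts in each tumor, too few to be tested.

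**Figure D3:**
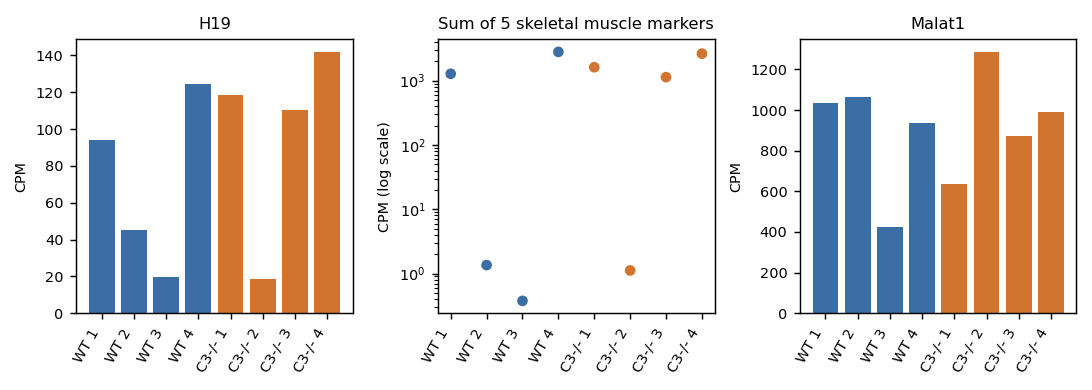
CPM per tumor of H19 (left), of the 5 skeletal muscle markers summed (middle, log axis) and of Malat1 (right), with WT tumors in blue and C3-/- tumors in orange. H19 is lowest in WT tumors 2 and 3 and C3-/- tumor 2, where the muscle sum is at 0.376 to 1.35 CPM, and Malat1 is lowest in WT tumor 3 and C3-/- tumor 1.

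The members included 7 miRNA hosts, by miRNA genes of GENCODE vM39 inside their models. The libraries measure the host transcript and not the mature miRNA. The mature miRNAs of the most abundant hosts are given as RefSeq lists them for GRCm38.p6, with the seed (bases 2 to 8), which pairs with target mRNAs, in capitals.
miR-100-5p, in Mir100hg: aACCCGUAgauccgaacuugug
miR-125b-5p, in Mir100hg: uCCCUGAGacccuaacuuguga
miR-31-5p, in Gm49890: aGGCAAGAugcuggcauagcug
miR-22-3p, in Mir22hg: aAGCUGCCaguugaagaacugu
miR-675-5p, in H19: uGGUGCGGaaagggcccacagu
Over all 22 mature miRNAs that matched, from 12 of the 13 miRNA genes inside members, the 22 seeds were all different, and miRNAs that were not matched were not compared.

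Of the miRNA hosts, 1 of 7 had an unadjusted p below 0.05, and it was lower in C3-/- tumors, against 5.11% of all genes tested in either direction and 2.07% lower. Mir22hg (chromosome 11, 75352365 to 75357502) had 43.2, 33.9, 57.3 and 55.4 CPM in WT and 31.2, 34.5, 34.7 and 32.6 in C3-/- tumors. The C3-/- values were tight and the WT values spread, and WT tumor 2 lay among the C3-/- tumors (log2 fold change -0.51, SE 0.17, unadjusted p 0.013, adjusted p 0.96 in edgeR). Its model overlaps Tlcd2 on the same strand, which had -0.38 (SE 0.27).

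Mir100hg, the host of miR-100, miR-125b-1 and let-7a-2, had 517 to 704 CPM in WT and 338 to 861 in C3-/- tumors, with the lowest and the highest value both in the C3-/- group (log2 fold change 0.03, SE 0.25). Gm49890, the host of miR-31, had 20.2 to 31.7 CPM in WT and 25.7 to 34.5 in C3-/- tumors (0.28, SE 0.17). Neither separated the genotypes.

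The 15 hosts of snoRNAs or of the related scaRNAs held 53 such genes. Gas5 and some other hosts are known to start with C and a run of pyrimidines, as ribosomal protein mRNAs do. This start, the TOP motif, ties translation to growth signals. The starts are shown for the 3 hosts with C followed by at least 4 pyrimidines at the RefSeq start (GRCm38.p6). Each run holds 10 bases before the start and 20 from it on, with the pyrimidine run in capitals.
1110038B12Rik: gcacacgggtCTCTTTgtgcacccgcccac
Gas5: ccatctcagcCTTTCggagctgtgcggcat
Snhg8: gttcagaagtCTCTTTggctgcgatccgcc
Of the 59 members, 33 had a listed start. Such a run was found, on the transcript strand, in 3 of 12 matched snoRNA hosts (25%), 1 of 21 other matched members (4.76%), 12 of 55 matched ribosomal protein genes (21.8%) and 3.01% of all 27025 genes with a listed start. Ribosomal protein mRNAs are known for this start, so their 21.8% shows that the listed positions can miss it. A host without the run here may therefore still have the motif.

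None of the 15 snoRNA hosts had an unadjusted p below 0.05 in edgeR, where 5.11% of all genes tested had. Of the 15, 14 (93.3%) had a log2 fold change within 0.25 of 0, against 69.3% of all genes tested and 86.6% of the abundant protein-coding genes, and the median was 0.09. Gas5, a growth-arrest transcript, had 195, 151, 264 and 198 CPM in WT and 273, 203, 229 and 227 in C3-/- tumors (log2 fold change 0.20, SE 0.17, and 0.0867 without WT tumor 2 to 0.36 without WT tumor 3). Zfas1 had 70.2 to 107 CPM in WT and 70.7 to 118 in C3-/- tumors (0.07, SE 0.18), and Snhg8 had 29.8 to 44.3 and 22.8 to 56.6 (-0.03, SE 0.28). The fixed list of snoRNA hosts, of which 16 genes were tested and 10 were members, likewise had 0 genes at an unadjusted p below 0.05.

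Within each genotype, however, most snoRNA hosts followed 1 pattern across tumors. WT tumor 3 was the highest of the 4 WT tumors for 11 of the 15 (73.3%, against 34.3% of all genes tested), and C3-/- tumor 1 was the highest of the 4 C3-/- tumors for 11 of the 15 (73.3%, against 35.8%). WT tumor 2 was the lowest of its group for 11 of them (73.3%, against 23.7% of all genes tested) and C3-/- tumor 2 for 8 (53.3%, against 28.2%). The hosts' median log2 CPM was 0.30 above each gene's 8-tumor mean in WT tumor 3 and 0.33 above it in C3-/- tumor 1. Ribosomal protein genes, a list chosen after values were seen, had the same tumors highest in their groups for 70 and 72 of 74 genes, with medians of 0.56 and 0.61.

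Of all 59 members, 9 had the lowest value of both groups in these same tumors (15.3%, against 21.7% of all genes tested). Examples chosen after their values were seen are Malat1, Mir100hg, Oip5os1 and Kcnq1ot1, the last with 15.2 and 27.9 CPM. Oip5os1 had 95.9 CPM in WT tumor 3 against 133 to 138 in the other WT tumors, and 90.4 in C3-/- tumor 1 against 141 to 159. Among the 44 members that host no snoRNA, C3-/- tumor 1 was the lowest of its group for 19 (43.2%, against 36.2% of all genes tested) and WT tumor 3 for 10 (22.7%, against 33.5%). WT tumor 3 was the highest of its group for 16 of the 44 (36.4%). The summed carcinoma epithelium markers were highest of their group in the same tumors, at 8716 and 7761 CPM. Krt8 and Krt18 were highest in both, whereas Krt19 was highest of its group only in C3-/- tumor 1, Epcam only in WT tumor 3, and Cdh1 in neither. C3-/- tumor 1 also had the highest acinar sum, 1373 CPM. These tumors were also the lowest of their groups in the share of counts from all lncRNAs, at 0.932% (1.14% to 1.16% in the other WT tumors) and 0.954% (1.22% to 1.43% in the other C3-/- tumors). They had the fewest genes with a count, 22174 and 23725, and the lowest mitochondrial share, 1.45% (1.46% to 2.05% in the other WT tumors) and 1.17% (1.94% to 2.12%). The part of the cell mixture and of the libraries in this pattern was not tested.

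**Figure D4:**
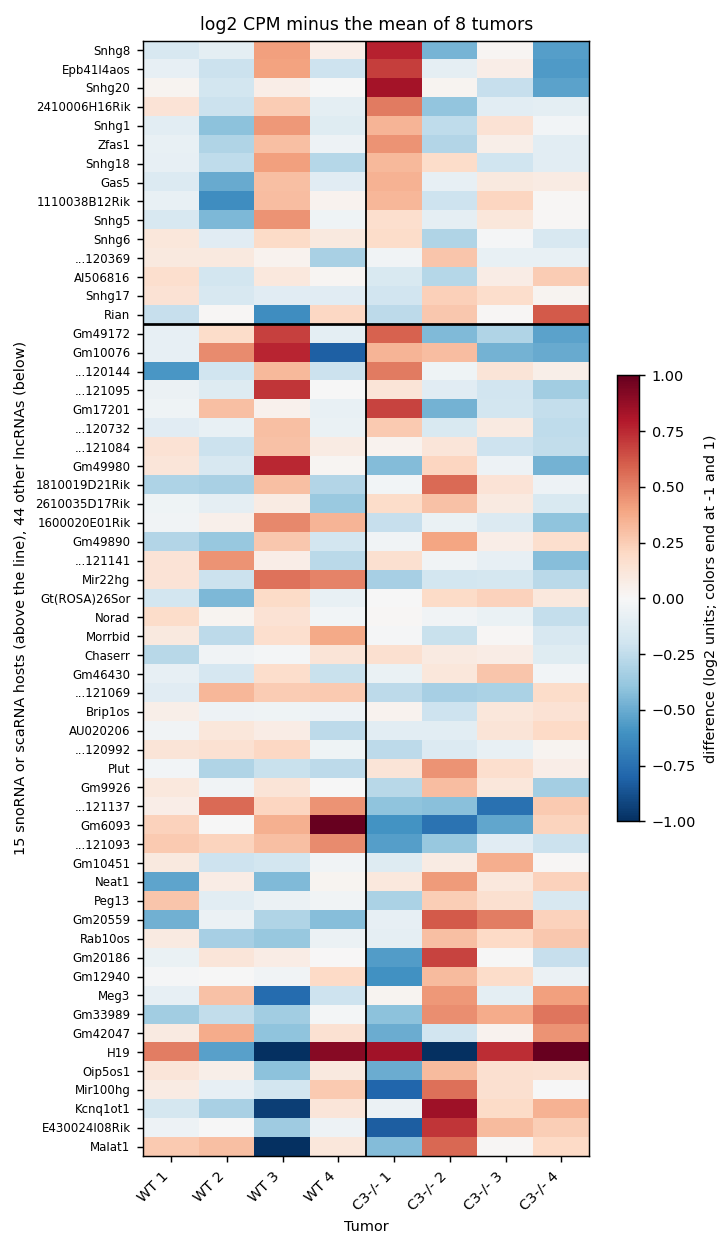
Log2 CPM of each lncRNA in each tumor minus its mean over 8 tumors (red above, blue below; colors end at -1 and 1), with the 15 snoRNA or scaRNA hosts above the black line and the other 44 below. WT tumor 3 and C3-/- tumor 1 are red for most hosts and blue for Malat1, Mir100hg and Kcnq1ot1 at the bottom.

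The remaining lncRNAs host no small RNA, and few have a well described role. ENSMUSG00000121093 (Gm56906 in GENCODE vM39; chromosome 17, 21695173 to 21698393) had the smallest p of the 59. It had 50.8, 49.6, 52.4 and 59.1 CPM in WT and 29.0, 32.6, 39.3 and 36.6 in C3-/- tumors. All WT values lay above all C3-/- values, with means of 53.0 ± 4.24 and 34.4 ± 4.50 (SD, n = 4 each). In edgeR the log2 fold change was -0.62 (SE 0.13) with an unadjusted p of 0.000818 and an adjusted p of 0.933. In DESeq2 the log2 fold change was -0.63 and the adjusted p 0.0489, just under the threshold. With 1 tumor left out in turn, DESeq2 kept the call without C3-/- tumor 1 (adjusted p 0.0341) and lost it when any of the other 7 was left out (0.121 to 0.889), with log2 fold changes of -0.58 to -0.70 in those 7 fits. The model overlaps no other gene of the table.

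Gm6093 had the largest change in size. It had 22.3, 19, 24.4 and 39.5 CPM in WT and 12.6, 11.5, 13.3 and 22.3 in C3-/- tumors, so that C3-/- tumor 4 lay within the WT range (log2 fold change -0.82, SE 0.28, unadjusted p 0.0135, adjusted p 0.96 in edgeR). ENSMUSG00000121137 had 22.8 to 32.2 CPM in WT and 13.0 to 26 in C3-/- tumors, where tumor 4 again lay among the WT tumors (-0.62, SE 0.22, unadjusted p 0.018). ENSMUSG00000121069 had 247 to 336 CPM in WT and 212 to 303 in C3-/- tumors, and tumor 4 was once more the C3-/- tumor within the WT range (-0.36, SE 0.16, unadjusted p 0.0456). The fibroblast markers Col1a1, Col1a2, Pdgfra and Dcn all had negative log2 fold changes, with a median of -0.24. They summed to 5367, 7888, 4888 and 6855 CPM in WT and 5999.8, 2929.8, 4324 and 7732 in C3-/- tumors, so C3-/- tumor 4 and WT tumor 2 were highest of their groups, as they were for ENSMUSG00000121137 and ENSMUSG00000121069. The sum is mostly collagen counts, and Pdgfra and Dcn were highest of the WT tumors in tumor 4. The endothelium markers, at 88.7 to 164 CPM in sum, also had WT tumor 2 and C3-/- tumor 4 highest. Gm6093, unlike these sums, was lowest of the WT tumors in tumor 2. It was highest of each group in tumor 4, as Pdgfra and Dcn were. The part of these cells in the levels was not tested.

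1600020E01Rik had 14.5, 15.3, 20.7 and 18.8 CPM in WT and 12.7, 14.2, 13.5 and 11.2 in C3-/- tumors. The groups did not overlap, but 14.5 and 14.2 were close (log2 fold change -0.43, SE 0.17, unadjusted p 0.0288, adjusted p 0.971 in edgeR). It overlaps Pcbp1 on the opposite strand, an RNA-binding protein gene with a log2 fold change of 0.09 (SE 0.14).

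Of the lncRNAs higher in C3-/- tumors, Gm20559 (chromosome 6, 3333191 to 3346128) had 13.8, 18.4, 15.6 and 14.3 CPM in WT and 18.1, 29.5, 27.4 and 22.5 in C3-/- tumors. Only C3-/- tumor 1, at 18.1, fell below a WT tumor (log2 fold change 0.65, SE 0.18, unadjusted p 0.00505, adjusted p 0.933 in edgeR). Gm33989 likewise had 18.6 to 23.3 CPM in WT and 30.5 to 34.1 in C3-/- tumors 2 to 4, but 17.7 in C3-/- tumor 1 (0.52, SE 0.20, unadjusted p 0.0301). With the acinar markers, highest in C3-/- tumor 1, as a covariate, an alternative added after seeing the data, the difference in Gm33989 was 0.19. Outside C3-/- tumor 1 the acinar sum was lower in every C3-/- tumor (38.2 to 64.4 CPM) than in any WT tumor (152.9 to 399.7). Marker level and genotype thus cannot be fully told apart in that fit. Without C3-/- tumor 1, DESeq2 called Gm20559 and Gm33989 (log2 fold changes 0.77 and 0.68, adjusted p 0.0121 and 0.0091) among 111 of 17040 genes (0.651%). Without that tumor edgeR called 0 members and 4 of 16882 genes (0.0237%). Leaving out this tumor also raised the share of all genes tested without overlap between groups from 3.73% to 13.8%.

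Plut, whose gene lies opposite Pdx1, had 21.0, 17.3, 18.3 and 17.8 CPM in WT and 23.4, 29.1, 23.9 and 22.3 in C3-/- tumors. Its groups did not overlap (log2 fold change 0.41, SE 0.14, unadjusted p 0.0155, adjusted p 0.96 in edgeR). Pdx1, the transcription factor gene of the pancreas and its islets, had 33.5, 29.6, 29.6 and 29.3 CPM in WT and 41.7, 36.1, 42.0 and 34.2 in C3-/- tumors, also without overlap (0.34, SE 0.13, unadjusted p 0.022, adjusted p 0.965 in edgeR). The gene models overlap on opposite strands, so their reads may not be fully separate, although their exons do not overlap in GENCODE vM39. The islet hormone genes Ins1, Ins2, Gcg and Sst summed to 57.2 CPM in WT tumor 2 and to at most 1.495 CPM in each other tumor.

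**Figure D5:**
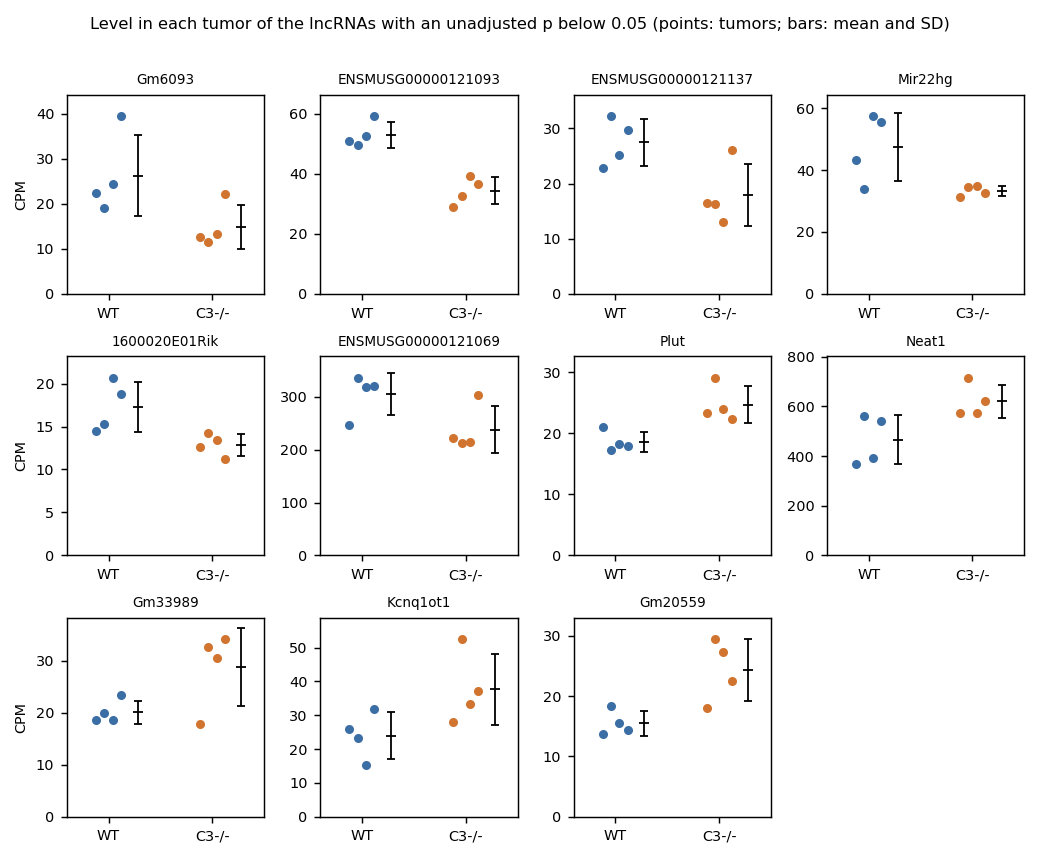
CPM of the 11 lncRNAs with an unadjusted p below 0.05 in each WT (blue) and C3-/- (orange) tumor, with the mean and SD of 4 tumors beside the points; each axis starts at 0. ENSMUSG00000121093, 1600020E01Rik, Plut and Neat1 have no overlap between groups, while C3-/- tumor 4 overlaps the WT tumors for Gm6093, ENSMUSG00000121137 and ENSMUSG00000121069.

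Variation between tumors of a genotype was measured as edgeR's biological coefficient of variation (BCV), the relative SD left after counting error. The members' median BCV was 0.208, and 14 of the 59 exceeded the median of all genes tested, 0.245. Abundant genes vary less by this measure, and 42 of the 59 exceeded 0.192, the median of the protein-coding genes that met the same minimum. Those genes were themselves more abundant, with a median level of 58.6 CPM against 38.2 for the members, so levels were not matched. For 21 members the highest tumor was at least 2 times the lowest in CPM. H19 stood apart with a BCV of 0.593, followed by Gm10076 at 0.344, Malat1 at 0.306, Snhg8 at 0.297 and Gm6093 at 0.295. The steadiest were Norad at 0.154 and ENSMUSG00000120992 at 0.157. Norad had 284 to 329 CPM in WT and 245 to 292 in C3-/- tumors (log2 fold change -0.17, SE 0.12), and ENSMUSG00000120992 had 310.4 to 369 and 267 to 326 (-0.22, SE 0.12).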

How the data were processed

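Tumor RNA of 4 WT and 4 C3-/- hosts was captured with poly-T beads and sequenced in read pairs. The labels do not say whether libraries kept strand. The authors deposited raw counts per gene (mm39), made with STAR and HTSeq per the methods, while the submitters' processing notes name HISAT2 2.0.5 and DESeq2 1.20.0. Beside them stand counts divided by size factors, a signal per tumor deposited by the authors and not used here, the FPKM values deposited by the authors, used for levels only, and log2 fold changes and p-values of the authors' own comparison, which were not used. The FPKM rest on the authors' transcript lengths. The 59 lncRNAs and all gene lists were chosen with earlier results of these data known.

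Counts of all genes were fitted with edgeR 4.0.16 in R 4.3.3 (filterByExpr with a minimum of 10, TMM, glmQLFit and glmQLFTest, Benjamini-Hochberg over 16610 genes). These genes held 99.8% or more of the counts in every tumor. DESeq2 1.42.0 and limma 3.58.1 (voom) were alternatives, with other filters, scaling, robust fitting, a replicate block, marker covariates and each tumor left out. Counts cover read pairs, not molecules. No 2 tumors of a genotype looked like repeats of 1 library (chi-square per gene of 15.2 or more). Small RNA genes and overlaps came from GENCODE vM39, in which all 59 identifiers were found. The tests were tried on simulated data.

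Genes were named by rule: Malat1 and Neat1, the 10 highest by FPKM, the 5 smallest p in each direction, the 5 largest BCV, any member called, the 3 highest of each noncoding list, and those beside the minimum. Other genes were named as neighbours, list examples or after their values were seen.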

Additional observations from a re-analysis of the deposited data

Results flagged for a closer look

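In 4 of the 56 groups of 4 tumors examined, 1 tumor lay farther from the other 3 than Dixon's 95% critical value for 4 samples allows on the log2 scale, where chance gives about 1 in 20, or 2.8. Malat1 in WT tumor 3 had 427 CPM, against 935 to 1062 in the other WT tumors. H19 in C3-/- tumor 2 had 18.7 CPM, against 110.4 to 142, and this tumor was also the C3-/- tumor nearly without skeletal muscle markers. Gm33989 in C3-/- tumor 1 had 17.7 CPM, against 30.5 to 34.1. ENSMUSG00000121069 in C3-/- tumor 4 had 303 CPM, against 212 to 223.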

How the results depend on the processing

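The count of members with an adjusted p below 0.05 was 0 in edgeR under every alternative run, limma-voom and each tumor left out included. DESeq2 called 1 member and 16 genes. With 1 tumor left out in turn, DESeq2 called 0 to 3 members and 1 to 111 genes, and edgeR 0 to 4 genes, the 4 without C3-/- tumor 1. Members without overlap between groups numbered 4 to 13 with a tumor left out, the 13 without C3-/- tumor 1 (22% of members, where 13.8% of all genes did not overlap, against 4.52% to 13.8% over the left-out tumors), and Neat1, Plut, ENSMUSG00000121093 and 1600020E01Rik were among them each time. Members with a BCV above the median of all genes numbered 8 to 14 with a tumor left out, and 1 with no filter beyond 1 count, where the median covers more low genes, and 20 among genes with at least 10 counts in every tumor. A minimum of 100 or 500 counts in place of 200 gave 118 or 27 lncRNAs, with 0 called by edgeR. The Pearson r of Malat1 and Neat1 was 0.12 to 0.88 with a tumor left out, the highest without WT tumor 1 (exact permutation p = 0.0145).

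Of 27 members named by rule, 18 kept their sign under all 17 alternatives. The sign of 8 changed with a tumor left out: Gm10076 (-0.45 to 0.0271), Gm20186 (-0.28 to 0.17), Malat1 (-0.10 to 0.27), Mir100hg (-0.19 to 0.23), Peg13 (-0.12 to 0.0645), Snhg20 (-0.21 to 0.30), Snhg8 (-0.38 to 0.13) and Zfas1 (-0.0919 to 0.19). Limma-voom reversed Gm20186 (-0.0586) and Mir100hg (-0.0319). With muscle markers as a covariate H19 was -0.13 and Gm10076 0.0658. With acinar markers as a covariate Malat1 was -0.11, Gm20186 -0.22, Mir100hg -0.32 and Snhg8 0.22. Outside C3-/- tumor 1 the sum of these markers was lower in every C3-/- tumor than in any WT tumor. That fit thus cannot fully separate marker level from genotype. The cause was not tested. The replicate numbers do not pair the tumors (residual correlations of same-numbered tumors -0.03, 0.49, -0.36 and 0.59). With the replicate block, 0 genes and 0 members were called, the median log2 fold change of the members was 0.05, and Gm20186 (-0.062) and Mir100hg (-0.0395) turned sign.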
